A study of Mus musculus with 6 samples.

Results

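The nuclear-encoded subunits of oxidative phosphorylation were taken as all features whose gene symbol begins with Nduf plus a, b, c, s or v and a number (complex I), with Sdh plus a to d (complex II), with Uqcr (complex III), with Cox4 to Cox8 (complex IV) or with Atp5 (complex V). This rule used symbols and no measured value, and it found 84 of the 24214 features listed for each sample. They comprised 37 features of complex I, 4 of complex II, 8 of complex III, 18 of complex IV and 17 of complex V. Atp5s (coupling factor B), Atp5sl, Cox7a2l (a factor of respiratory supercomplexes) and Ndufa4l2 (a paralog of Ndufa4) carry matching symbols without being structural subunits, which leaves 80. Ndufa4 is named for complex I but is a subunit of complex IV.

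The samples were total RNA of an epithelial murine lung adenocarcinoma (LUAD) cell line, labelled KP lung cancer cells and strain C57BL/6. The cells carried a stably transfected ZEB1 expression vector (393P_ZEB1, 3 samples) or the empty vector (393P_vector, 3 samples), and all were grown alike in serum-containing medium. ZEB1 is a transcriptional repressor that activates epithelial-to-mesenchymal transition (EMT), and the comparison asks how its ectopic expression changed transcript levels. The labels do not say whether the 3 samples of a group came from separate transfections or cultures, so p-values measure the spread between these samples, which may be technical, and a difference between the stable lines other than ZEB1 cannot be told apart from ZEB1. RNA came from whole cultures, in which fewer cells expressing a gene and less RNA per cell cannot be told apart.

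Oxidative phosphorylation passes electrons from NADH (complex I) and succinate (complex II) through complex III and cytochrome c to oxygen at complex IV, and the proton gradient built on the way drives ATP synthesis by complex V. Complexes I, III, IV and V combine subunits encoded by mitochondrial DNA with a larger number encoded in the nucleus, and complex II is wholly nuclear-encoded. NRF1, GABP (ETS family) and YY1 are the factors best known for binding the promoters of these nuclear genes, and coactivators of the PGC-1 family act through them. The mitochondrially encoded subunits were not analysed here.

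Each sample held between 54442450 and 79158012 counted reads, and a detection floor of 3 counts came to 0.0361 to 0.0561 CPM. CPM is the count scaled to a TMM-normalized library size, and it is the level scale used below. The floor covers counting error only. Mouse Zeb1 was at 21.2, 22.0 and 21.4 CPM in 393P_vector and at 54.9, 48.9 and 51.3 CPM in 393P_ZEB1. Among epithelial markers, Cdh1 (E-cadherin) had a mean of 162 CPM in 393P_vector and 9.51 CPM in 393P_ZEB1, and the mesenchymal marker Vim (vimentin) had means of 5508 and 7330 CPM. The lung epithelial markers were at or near absence: Scgb1a1 had no count in any sample, and Nkx2-1 did not exceed 0.0561 CPM. One vector sample stood apart, and because this touched many subunits it is described with them.

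The promoters whose sequence bears on the regulators measured below are shown first. RefSeq promoter windows of 300 bases (250 before and 50 after the start, GRCm38.p6) were found for 69 of the 84 genes, 3 of them under a newer symbol, and 15 had no entry (among them Atp5a1, Cox4i1, Cox4i2, Cox6a2, Cox6c, Cox8c, Ndufa2, Ndufa4l2, Ndufb9, Ndufs1, Sdhc, Uqcrb, Uqcrc2 and Uqcrq). Each motif was searched on both strands. The NRF1-type core CGCANGCG was in 26 of the 69 genes (37.7%), against 18.9% of all tested genes with an entry and 9.22% of all genes of the table. By complex it was in 10 of 32 genes of complex I, 2 of 3 of complex II, 3 of 5 of complex III, 1 of 13 of complex IV and 10 of 16 of complex V. Of the 64 tested members with an entry, 25 held it (39.1%), and of the 2 higher ones with an entry 0 did. Of the 8 members with lower counts in 393P_ZEB1 (below), 5 held it. These 5 are shown with the core in capitals, each read on the gene's strand.
Ndufa11, chr17:56717679-56717734, plus strand: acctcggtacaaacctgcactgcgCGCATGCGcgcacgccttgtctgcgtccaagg
Ndufa5, chr6:24527684-24527739, minus strand: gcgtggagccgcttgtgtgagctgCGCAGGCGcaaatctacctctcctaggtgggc
Ndufb10, chr17:24724418-24724473, minus strand: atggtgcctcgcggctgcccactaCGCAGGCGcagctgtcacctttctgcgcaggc
Ndufs6, chr13:73328466-73328521, minus strand: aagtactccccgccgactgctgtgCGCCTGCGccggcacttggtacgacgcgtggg
Atp5d, chr10:80142309-80142364, plus strand: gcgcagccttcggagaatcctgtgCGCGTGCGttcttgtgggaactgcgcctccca

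The ETS or GABP core CCGGAAG was in 16 of the 69 genes (23.2%), against 19.0% of all tested genes with an entry, and the YY1-type core ATGGCGGC in 7 (10.1%), against 5.43%. The GC box GGGCGG was in 28 (40.6%), against 68.8%, and TATAAA in 7 (10.1%), against 8.97%. The E2 box CAGGTG, the element that ZEB1 binds, was in 14 (20.3%), against 21.1%. Among the lower members, Ndufa9 and Ndufs6 also held a YY1-type core and Ndufa5 a GC box. Shown here, because ZEB1 and the GABP subunit Gabpa were measured, are the E2 boxes of Ndufa9 and Atp5d, the lower members that held one, and the ETS core of Uqcrh, the higher member that held one among the 2 with an entry.
Ndufa9 E2 box, chr6:126849315-126849368, minus strand: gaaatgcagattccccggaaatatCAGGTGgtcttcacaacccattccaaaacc
Atp5d E2 box, chr10:80142047-80142100, plus strand: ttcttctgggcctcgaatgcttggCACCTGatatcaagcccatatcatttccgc
Uqcrh ETS core, chr4:116075050-116075104, minus strand: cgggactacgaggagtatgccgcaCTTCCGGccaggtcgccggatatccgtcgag
A match describes these letters in this window and is not evidence that a factor binds there.

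Of the 84 features, 75 had enough counts to be tested. Between 393P_ZEB1 and 393P_vector, 5 of them rose (6.67%) and 8 fell (10.7%) at an edgeR adjusted p below 0.05, whereas of all 13892 tested genes 18.3% rose and 19.3% fell. The 5 that rose were Ndufa2, Ndufs1, Uqcrh, Cox7c and Atp5a1. Those that fell were Ndufa4, Ndufa5, Ndufa9, Ndufa11, Ndufb10, Ndufs6, Atp5d and Atp5g1, so 6 of the 8 carried complex I symbols. The median log2 fold change of the 75 was -0.33, beside -0.024 over all tested genes, and values ranged from -1.95 for Ndufa4 to 1.04 for Ndufa2. Without a test, 9 members had all 393P_ZEB1 samples above all 393P_vector samples (12%, against 26.3% of all tested genes), and 17 had them below (22.7%, against 26.5%).

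The negative median rested on 393P_vector replicate 3. That sample was the highest of all 6 for 53 of the 75 members (70.7%), against 28.0% of all tested genes. Its CPM was at least 2-fold the mean of the other vector samples for 24 members (32.0%), against 5.05% of all tested genes, and the median ratio was 1.51. Ndufa3 had the highest ratio, 5.69, and Cox7a2l the lowest, 0.338. The ratio was higher for short transcripts. Its median was 1.98 for the 31 members with under 600 bases of exon, 1.73 for the 19 with 600 to under 1000, and 1.19 for the 25 with 1000 or more. All tested genes had medians of 1.33, 1.40 and 0.978 in the same classes. Spearman's rho of the ratio with exon length was -0.42 over the 75 members, a description, since the members share the library. In a limma voom fit that weights samples, this sample received a weight of 0.111, against 0.726 to 3.02 for the others. Why it differed was not tested.

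**Figure D1:**
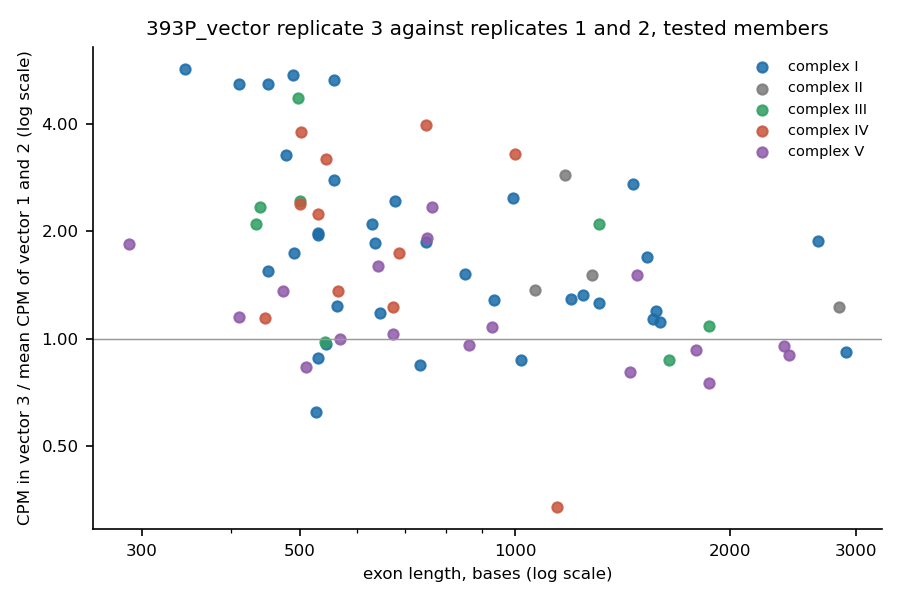
CPM of each tested member in 393P_vector replicate 3 divided by its mean in replicates 1 and 2 (y axis, log scale), against exon length in bases (x axis, log scale), with 1 point per member coloured by complex. Most short members lie above 1, up to 5.69 for Ndufa3, and the members of complex V lie closest to 1.

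When 393P_vector replicate 3 was left out, 10 members rose (13.3%) and 14 fell (18.7%), against 26.2% and 26.8% of all genes tested in that fit, and the median log2 fold change of the members was 0.018. All 13 members called with 6 samples were also called without this one, in the same direction. The 11 gained included Uqcrfs1, Atp5f1, Atp5j and Atp5o, which rose, and Ndufa8, Ndufb7, Ndufb8, Ndufv2, Uqcrc1 and Atp5b, which fell. The sign of the median thus depended on this sample, and the 13 calls did not.

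Complex I, the NADH dehydrogenase, supplied 35 of the 75 tested members. Of these, 2 rose (5.71%) and 6 fell (17.1%), against 18.3% and 19.3% of all tested genes, so the share that fell was near that of all genes. The median log2 fold change was -0.43. Without 393P_vector replicate 3, 3 rose (8.57%) and 10 fell (28.6%), against 26.2% and 26.8%, and the median was -0.11. The 7 core subunits, which carry the flavin and the iron-sulfur clusters or the quinone site, had log2 fold changes between -1.17 and 0.45, and 1 of them, Ndufs1, passed the test.

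Ndufs1 (chr1:63143592-63176822), the core subunit of the electron-input module with the most iron-sulfur clusters, was at 165, 168 and 153 CPM in 393P_vector and at 234, 207 and 226 CPM in 393P_ZEB1. Every 393P_ZEB1 sample was above every 393P_vector sample. The log2 fold change was 0.45 ± 0.10 (SE, n = 3 against 3, edgeR adjusted p = 0.00895), or 1.37-fold, and 0.41 without 393P_vector replicate 3. Ndufv2, another core iron-sulfur subunit, was at -1.17 ± 0.40 (edgeR adjusted p = 0.0512) and at -0.52 without the sample (edgeR adjusted p = 0.012).

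Ndufa2, an accessory subunit on chromosome 18, had the largest rise of all members. It was at 98.1, 85.2 and 57.3 CPM in 393P_vector and at 167, 145 and 184 CPM in 393P_ZEB1. The groups did not overlap, and 393P_vector replicate 3 was the lowest of the 6. It rose by 1.04 ± 0.20 on the log2 scale (SE, edgeR adjusted p = 0.0051), or 2.06-fold, and 0.85 without that sample. The span of Ndufa2 overlaps that of Tmco6 on the other strand, and reads of overlapping genes cannot be told apart without strand.

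Ndufa4 (chr6:11900373-11907446), the complex IV subunit with a complex I name, was at 22.0, 22.8 and 122 CPM in 393P_vector and at 12.4, 16.9 and 14.2 CPM in 393P_ZEB1. All 393P_ZEB1 samples were below all 393P_vector samples, and 393P_vector replicate 3 was far above the rest. The log2 fold change was -1.95 ± 0.65 (edgeR adjusted p = 0.0498), and -0.63 ± 0.13 without that sample (edgeR adjusted p = 0.00242), a value that is more than 1.5 times smaller. The call was lost without any single 393P_ZEB1 sample and in 7 of 13 alternative fits in all.

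Ndufb10 (chr17:24722067-24724388), an accessory subunit of the membrane arm, was at 19.9, 20.7 and 42.4 CPM in 393P_vector and at 13.2, 14.5 and 14.2 CPM in 393P_ZEB1. Ndufa11 (chr17:56717762-56724248), also of the membrane arm, was at 17.0, 19.7 and 34.5 CPM in 393P_vector and at 11.3, 14.2 and 14.8 CPM in 393P_ZEB1. For both, the 393P_ZEB1 samples were the 3 lowest, and 393P_vector replicate 3 was the highest. The log2 fold changes were -0.99 ± 0.29 (edgeR adjusted p = 0.0306) for Ndufb10 and -0.82 ± 0.27 (edgeR adjusted p = 0.047) for Ndufa11. Without that sample they were -0.54 and -0.45, and both calls were lost when any one 393P_ZEB1 sample was left out.

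The other accessory subunits that fell were Ndufa5, Ndufs6 and Ndufa9, by 0.70, 0.77 and 0.43 on the log2 scale. Ndufa5 changed little without 393P_vector replicate 3, to -0.72 (edgeR adjusted p = 0.00188). Across complex I, 393P_ZEB1 replicate 1 was the lowest 393P_ZEB1 sample for 28 of 35 members (80%), against 37.1% of all tested genes.

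**Figure D2:**
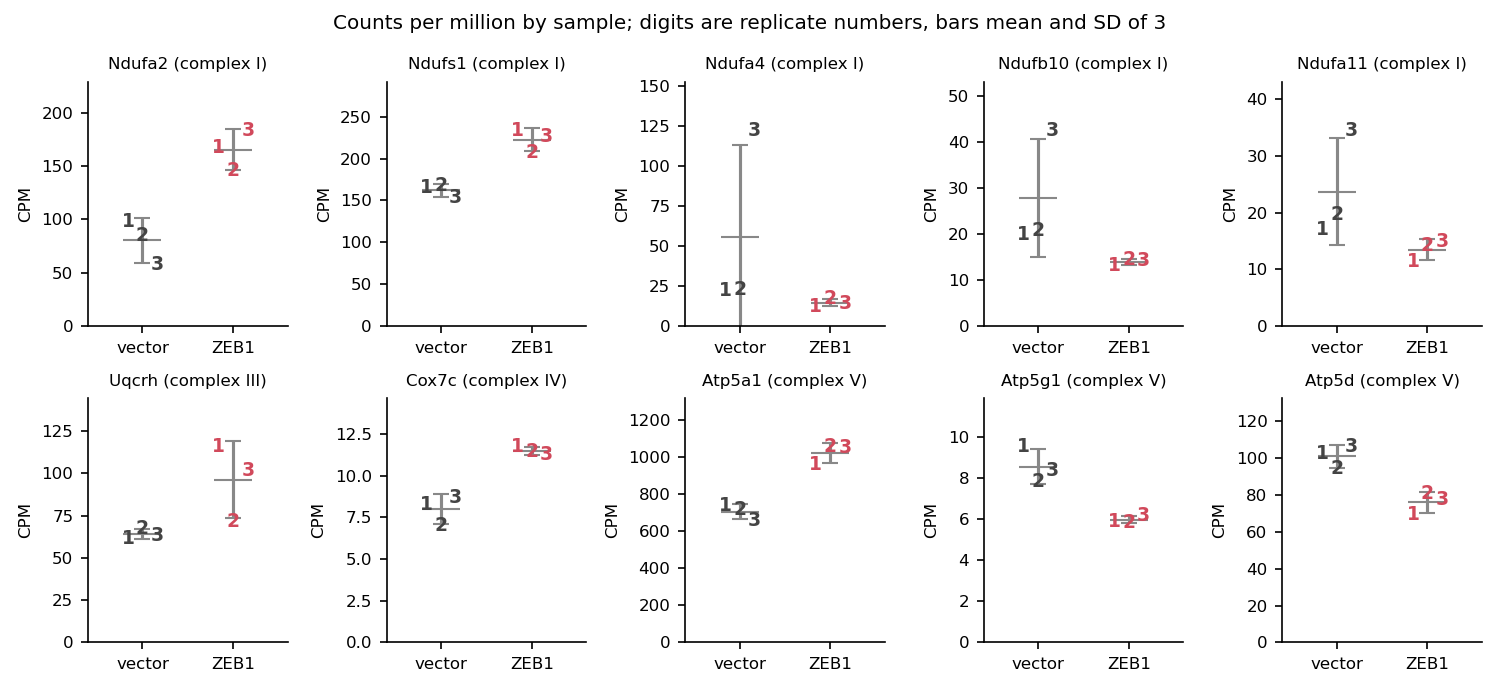
CPM (y axis, from 0) of the 10 members chosen by size of change within their complex, in 393P_vector (dark) and 393P_ZEB1 (red). All had to have an edgeR adjusted p below 0.05 and a mean of at least 5 CPM. Each digit is a sample's replicate number, and the bar is the mean with the SD of 3 samples, cut at 0 for Ndufa4. The digits of the 2 groups do not overlap in any panel, which this choice favours. Replicate 3 of 393P_vector is far above the others for Ndufa4, Ndufb10 and Ndufa11.

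Complex II, succinate dehydrogenase, also works in the TCA cycle. None of its 4 subunits passed the edgeR test; 0 had an unadjusted p under 0.05 in edgeR, and 0 passed in DESeq2 or in limma voom. The flavoprotein Sdha was at 192, 185 and 231 CPM in 393P_vector and at 203, 202 and 202 CPM in 393P_ZEB1. Its log2 fold change was -0.0015 ± 0.11, and that of the iron-sulfur subunit Sdhb was 0.019 ± 0.16. The membrane anchors Sdhc and Sdhd were at -0.52 ± 0.41 and -0.39 ± 0.18, and at 0.19 and -0.16 without 393P_vector replicate 3.

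Complex III, which passes electrons from ubiquinol to cytochrome c, had 1 rise (12.5%) and 0 falls among 8 tested members. Of all tested genes, 18.3% rose and 19.3% fell. With 6 samples no member was lower at an unadjusted p under 0.05 in edgeR, whereas limma voom called 2 lower and DESeq2 0. Without 393P_vector replicate 3, 2 members rose (25%) and 1 fell (12.5%), against 26.2% and 26.8% of all genes tested in that fit. Uqcrh (chr4:116066965-116075070), the small hinge subunit that contacts cytochrome c1, was at 61.4, 67.4 and 63.2 CPM in 393P_vector and at 116, 71.4 and 102 CPM in 393P_ZEB1. All 393P_ZEB1 samples were above the 393P_vector samples, replicate 2 by the smallest margin. Uqcrh rose by 0.59 ± 0.18 on the log2 scale (edgeR adjusted p = 0.0324), or 1.5-fold. The call was lost without 393P_vector replicate 1 or 2 or 393P_ZEB1 replicate 1 or 3. The other small subunits, Uqcr10, Uqcr11, Uqcrb and Uqcrq, were between -0.99 and -0.30, and between -0.29 and 0.24 without 393P_vector replicate 3, and none passed the test in either fit.

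The core proteins Uqcrc1 and Uqcrc2 were at -0.24 ± 0.12 and -0.21 ± 0.10, and neither passed the test with 6 samples. Uqcrc1 passed without 393P_vector replicate 3, at -0.31 (edgeR adjusted p = 0.0262). The Rieske iron-sulfur protein Uqcrfs1 was at 71.7, 66.4 and 145 CPM in 393P_vector and at 82.9, 92.7 and 90.7 CPM in 393P_ZEB1, so its place relative to 393P_vector depended on which vector sample it was set beside. Its log2 fold change was -0.090 ± 0.28 (edgeR adjusted p = 0.831), and 0.36 ± 0.08 without that sample (edgeR adjusted p = 0.00463). Cytochrome c1 itself, Cyc1, lies outside the symbol rule. It was at 171, 182 and 174 CPM in 393P_vector and at 93.6, 106 and 97.4 CPM in 393P_ZEB1, a log2 fold change of -0.83 ± 0.10 (edgeR adjusted p = 0.000388) that stayed at -0.84 without the sample.

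Complex IV, cytochrome c oxidase, had the lowest median log2 fold change with 6 samples, -0.53, and a median of 0.023 without 393P_vector replicate 3. Of its 11 tested members by symbol 1 rose (9.09%) and 0 fell, in both fits. Of all tested genes, 18.3% rose and 19.3% fell with 6 samples, and 26.2% and 26.8% without that sample. None of these 11 was lower at an unadjusted p under 0.05 in edgeR, and 0 were called lower by DESeq2 or limma voom. Ndufa4, which fell in both fits, is counted above under complex I by its symbol, and with it in complex IV the median was -0.56 with 6 samples. Cox7a2, a general small subunit, was at 19.5, 18.2 and 74.5 CPM in 393P_vector and at 21.2, 16.8 and 17.0 CPM in 393P_ZEB1. Replicate 3 of 393P_vector stood apart from the other 5 samples. Its log2 fold change was -1.03 with that sample and -0.041 without it.

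Cox7c (chr13:86044798-86046795), the complex IV member that rose, was at 8.27, 7.02 and 8.73 CPM in 393P_vector and at 11.7, 11.5 and 11.3 CPM in 393P_ZEB1. The groups did not overlap. Cox7c rose by 0.52 ± 0.14 on the log2 scale (edgeR adjusted p = 0.0201), and it was lost without any single sample other than 393P_vector replicate 3. Of the 50-base windows of its transcript, 47.0% occurred in no other gene, and 3 pseudogenes elsewhere shared the rest, so its counts are uncertain.

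The tissue-restricted isoforms of complex IV were near or below detection. Cox8b had 0 or 1 count in every sample, Cox6b2 and Cox8c no more than 2, Cox7b2 no more than 5 and Cox6a2 no more than 9, while the general isoforms Cox8a and Cox6b1 had means of 82.0 and 25.5 CPM in 393P_vector. Cox4i2, the hypoxia- and lung-associated partner of Cox4i1, had 4, 6 and 8 counts in 393P_vector and 1, 1 and 0 in 393P_ZEB1. Cox7a1, the heart and skeletal muscle partner of Cox7a2, had 11, 10 and 23 counts in 393P_vector and 3, 7 and 4 in 393P_ZEB1. For both isoforms the 393P_ZEB1 samples were the 3 lowest, at counts too few to be tested in the main fit. With no filter on low counts, 18 members of complex IV by symbol were tested in edgeR and 1 was lower. Without 393P_ZEB1 replicate 2, 12 were tested and 1 was lower. The remaining untested members were Ndufa4l2, with 0 to 5 counts, and the complex I subunit Ndufs5, with 7, 2 and 26 counts in 393P_vector and 0, 2 and 2 in 393P_ZEB1. Of the 50-base windows of Ndufs5, 58.8% occurred in no other gene. The muscle markers Actc1, Myh7 and Ckm did not exceed 2.01, 0.425 and 0.0935 CPM. In 393P_vector replicate 3, Actc1 had its highest value and Myh7 its lowest, 0.205 CPM. The part of these markers in these counts was not tested.

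Complex V, the ATP synthase, had the highest median level per length. Of its 17 tested members 1 rose (5.88%) and 2 fell (11.8%), both below the 18.3% and 19.3% of all tested genes. Without 393P_vector replicate 3, 4 rose (23.5%) and 3 fell (17.6%), against 26.2% and 26.8%. The median log2 fold change was 0.036, and 0.16 without the sample. The F1 head hydrolyses or makes ATP on 3 alpha-beta pairs around the gamma shaft, and its alpha and beta subunits had log2 fold changes of opposite sign.

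Atp5a1, F1 alpha, on chromosome 18, was at 743, 720 and 660 CPM in 393P_vector and at 963, 1057 and 1052 CPM in 393P_ZEB1. The groups were far apart relative to their spread. Atp5a1 rose by 0.53 ± 0.10 on the log2 scale (edgeR adjusted p = 0.00554), or 1.45-fold. Atp5b, F1 beta, the member with the most counts, was at 1723, 1826 and 1338 CPM in 393P_vector and at 1189, 1377 and 1376 CPM in 393P_ZEB1. The groups overlapped through 393P_vector replicate 3, which was the lowest vector sample. The log2 fold change was -0.31 ± 0.15 (edgeR adjusted p = 0.134), and -0.43 ± 0.09 without that sample (edgeR adjusted p = 0.00282). The ratio of Atp5a1 to Atp5b in CPM per kb, which library scaling cannot move, was 0.333, 0.305 and 0.381 in 393P_vector and 0.626, 0.593 and 0.591 in 393P_ZEB1. This ratio was chosen after the values were seen and was not tested. Atp5a1 lies on chromosome 18 and Atp5b on chromosome 10. The other tested genes there had median log2 fold changes of 0.64 and -0.29. Relative to these medians, Atp5a1 was at -0.10 and Atp5b at -0.020.

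Atp5d (chr10:80142315-80145818), F1 delta, was at 102, 94.2 and 106 CPM in 393P_vector and at 69.6, 80.8 and 77.5 CPM in 393P_ZEB1. Its groups did not overlap, and the log2 fold change was -0.41 ± 0.11 (edgeR adjusted p = 0.0185). F1 gamma (Atp5c1) and F1 epsilon (Atp5e) were at 0.23 ± 0.10 and 0.065 ± 0.18, and neither passed the test. The c ring of the membrane rotor is built from 1 protein that 3 genes encode. Atp5g1 (chr11:96072793-96075694), one of them, was at 9.52, 7.82 and 8.35 CPM in 393P_vector and at 5.91, 5.83 and 6.16 CPM in 393P_ZEB1, a log2 fold change of -0.52 ± 0.14 (edgeR adjusted p = 0.022) with no overlap between groups. Atp5g3, the most abundant of the 3 at 404 CPM per kb against 8.42 for Atp5g1, was at -0.042 ± 0.09. Atp5g2 was at -0.40 ± 0.21, but only 12.6% of its 50-base windows occurred in no other gene. Calls for Atp5d and Atp5g1 were lost without 393P_vector replicate 1, 393P_ZEB1 replicate 1 or 393P_ZEB1 replicate 3, and that for Atp5g1 also without 393P_ZEB1 replicate 2. The stalk and membrane subunits Atp5f1, Atp5h, Atp5j, Atp5o, Atp5j2, Atp5k and Atp5l were between -0.58 and 0.34 with 6 samples, and none passed the test. Without 393P_vector replicate 3, the stalk subunits Atp5f1, Atp5j and Atp5o rose, by 0.24, 0.33 and 0.44 (edgeR adjusted p = 0.0435, 0.00651 and 0.0204).

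Of the 10 members named for size of change, Ndufa2, Ndufs1 and Atp5a1 kept their call in all 13 alternative fits, with adjusted p-values of at most 0.0404 in edgeR, DESeq2 or limma. The other 7 lost it in at least 3, always with the same sign. Those 13 fits test for any change. In an edgeR test for changes beyond 1.5-fold, 1 member was called, a rise in complex I, and Atp5a1 was not.

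Levels per kb of exon ranged from 1.5 (Ndufb4) to 787 (Atp5b) CPM per kb among tested members, although most subunits are present once per complex. The median was 33.8 CPM per kb in complex I, 60.8 in complex II, 68.6 in complex III, 58.2 in complex IV and 78.4 in complex V, beside 9.08 over all tested genes. The counts of several members are uncertain, since 32 of the 84 shared windows with a pseudogene elsewhere, 18 had under 90% of windows found nowhere else (21.4%, against 7.06% of all tested genes with a value), and Ndufb4 had 63.0%. Across the 75 members, the level per kb had a Spearman's rho of 0.35 with the share of such windows and 0.16 with exon length.

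Summed over members, complex I was at 1638, 1660 and 2495 CPM per kb in 393P_vector and at 1595, 1690 and 1830 CPM per kb in 393P_ZEB1. Complex IV was at 767, 807 and 1520 CPM per kb in 393P_vector and at 728, 892 and 888 CPM per kb in 393P_ZEB1. In complexes I to IV, 393P_vector replicate 3 was above all 5 other samples, by 1.51 to 1.93 times the mean of the other vector samples. Complex V was at 2378, 2434 and 2317 CPM per kb in 393P_vector and at 2264, 2325 and 2426 CPM per kb in 393P_ZEB1, with the groups interleaved. Set against the first 2 vector samples, the summed CPM per kb of 393P_ZEB1 was 1.03 times in complex I, 1.06 in complex II, 1.08 in complex III, 1.06 in complex IV and 0.972 in complex V.

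**Figure D3:**
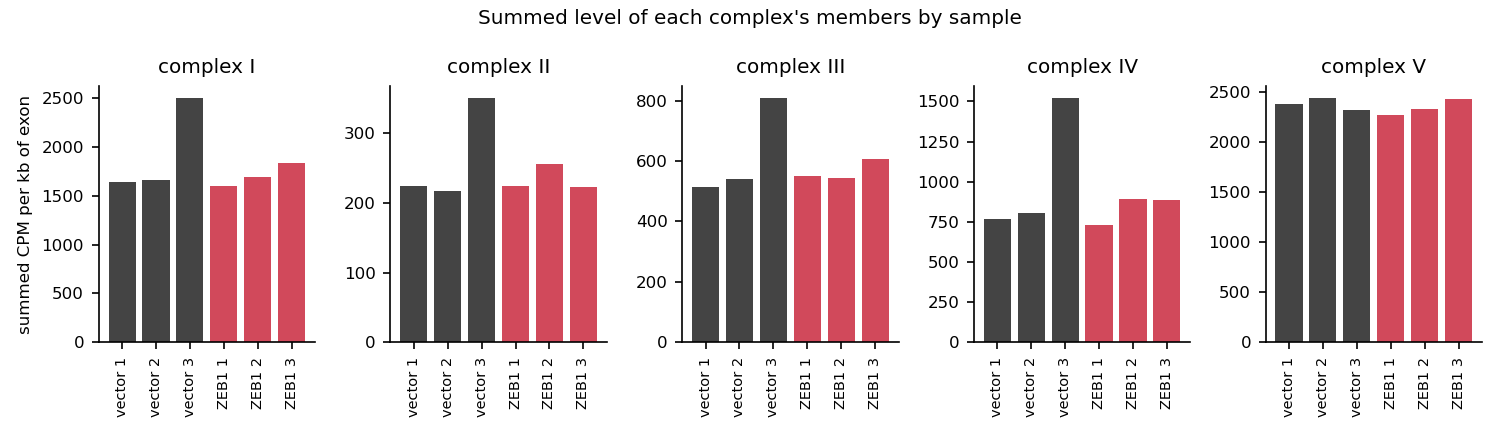
Summed CPM per kb of exon of each complex's members (y axis, from 0) in each sample (x axis), with 393P_vector dark and 393P_ZEB1 red. The third vector bar stands above the other 5 in complexes I to IV, by 1.51 to 1.93 times the mean of the first 2, and not in complex V.

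Members were also set beside the other genes of their chromosome. Median log2 fold changes of the other tested genes differed by chromosome, from -0.43 on chromosome 17 and -0.35 on chromosome 6 to 0.27 on chromosome 11 and 0.64 on chromosome 18. Both members on chromosome 18 rose (Ndufa2 and Atp5a1), 3 of 4 on chromosome 6 fell (Ndufa4, Ndufa5 and Ndufa9), and 2 of 6 on chromosome 17 fell (Ndufa11 and Ndufb10). Over all chromosomes, 18.3% of tested genes rose and 19.3% fell. The shares of the other genes called on each chromosome are not given here, so these counts cannot be set against them. Over the 75 members, Spearman's rho between the chromosome's median and the member's log2 fold change was 0.30, and 0.56 without 393P_vector replicate 3, as a description, since members on a chromosome share its median. The reason for the differences between chromosomes was not tested.

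Relative to the chromosome's median, Ndufs1 was at 0.39, Uqcrh at 0.56, Cox7c at 0.38, Ndufs6 at -0.91 and Atp5g1 at -0.79. The falls of Ndufs6 and Atp5g1 were thus larger relative to the chromosome than as fitted, and the rises of Ndufs1, Uqcrh and Cox7c smaller. Ndufa2 was at 0.41 and Atp5a1 turned to -0.10, so the rise of Atp5a1 was no larger than that of its chromosome. Ndufa9 was at -0.079, Atp5d at -0.12 and Atp5b, not called with 6 samples, at -0.020. Without 393P_vector replicate 3, 9 of the 10 members that rose and all 14 that fell kept their sign relative to the chromosome, with median relative values of 0.17 and -0.21 in place of 0.43 and -0.44.

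**Figure D4:**
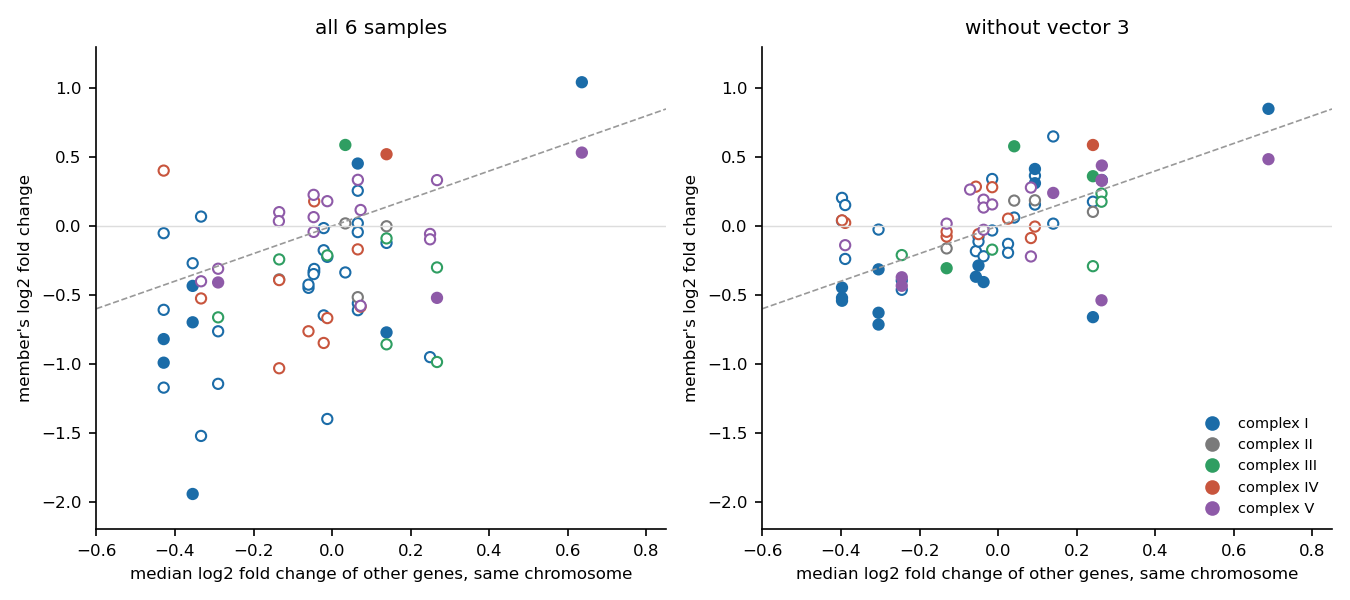
Log2 fold change of each tested member (y axis) against the median log2 fold change of all other tested genes on its chromosome (x axis), with all 6 samples (left) and without 393P_vector replicate 3 (right); filled points have an edgeR adjusted p below 0.05, and the dashed line marks equality. Atp5a1 and Ndufa2 lie at 0.64 on the x axis with 6 samples, Atp5a1 below the line and Ndufa2 above it.

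The genes around these subunits moved as follows in the fit with 6 samples. Of 41 tested assembly factors of the 5 complexes, 4 rose and 2 fell, with a median of 0.034. Of all tested genes, 18.3% rose and 19.3% fell. Among 4 of complex III, 3 rose: Ttc19, which helps clear Rieske protein fragments, by 0.97 ± 0.16 (edgeR adjusted p = 0.00218), Lyrm7, the Rieske chaperone, by 1.23 ± 0.24 (edgeR adjusted p = 0.00541), and Bcs1l, which inserts the Rieske protein, by 0.35 ± 0.11 (edgeR adjusted p = 0.0398). Lyrm7 was low, at means of 0.99 and 2.33 CPM. In the complex I list Ndufaf1 rose by 0.52, and in the complex IV list Coa5 fell by 0.63 and Higd1a by 1.00. In the lists for complexes II and V, with 3 and 4 genes tested, edgeR called 0, with 2 genes in each at an unadjusted p under 0.05, and DESeq2 and limma voom each called 1 in each list. Without 393P_vector replicate 3, 11 of the 41 assembly factors rose and 6 fell, against 26.2% and 26.8% of all genes tested in that fit. The complex IV list then had 6 rises and 3 falls.

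Of 17 tested regulators of mitochondrial genes, 2 rose and 4 fell, beside 18.3% and 19.3% of all tested genes. Ppargc1b, a PGC-1 family coactivator, was at 4.12, 4.88 and 3.19 CPM in 393P_vector and at 1.01, 1.28 and 0.868 CPM in 393P_ZEB1, a log2 fold change of -1.95 ± 0.24 (edgeR adjusted p = 0.000565). Esrrb fell by 1.62 from a mean of 0.236 CPM. Nrf1, whose core is shown in the promoters above, fell by 0.45 ± 0.13 (edgeR adjusted p = 0.0258), and Tfam, the mitochondrial DNA packaging factor, fell by 0.40; relative to chromosomes 6 and 10 they were at -0.099 and -0.11. Gabpa, the DNA-binding subunit of GABP, was at 67.3, 70.9 and 93.4 CPM in 393P_vector and at 147, 135 and 133 CPM in 393P_ZEB1, and rose by 0.84 ± 0.14 (edgeR adjusted p = 0.00289). Its span overlaps that of Atp5j on the other strand. Epas1 (HIF-2 alpha) rose by 2.02 to a mean of 1.13 CPM. Without 393P_vector replicate 3, 3 of the 17 regulators rose and 7 fell, against 26.2% and 26.8% of all genes tested in that fit.

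Of 13 TCA cycle enzymes, 1 rose and 3 fell, beside 18.3% and 19.3% of all tested genes. Cs (citrate synthase) fell by 0.40 ± 0.10 (edgeR adjusted p = 0.0146), and the succinyl-CoA ligase subunits Suclg1 and Sucla2 fell, by 0.66 and 0.61. A further subunit of this ligase, Suclg2, was at -0.30 ± 0.10 (edgeR adjusted p = 0.0529) and passed only without 393P_vector replicate 3 (edgeR adjusted p = 0.0169). Fh1 (fumarase) rose by 0.31. Relative to the chromosome's median, Cs was at -0.11, Suclg1 at -0.31, Sucla2 at -0.35, Suclg2 at 0.052 and Fh1 at 0.25. Without 393P_vector replicate 3, 2 of the 13 enzymes rose and 5 fell, against 26.2% and 26.8% of all genes tested in that fit. Of 10 tested genes at the switch between pyruvate oxidation and lactate, 2 rose and 2 fell, beside the same shares of all tested genes. Mpc1, a subunit of the mitochondrial pyruvate carrier, fell by 1.65 ± 0.28 (edgeR adjusted p = 0.00299) from a mean of 2.57 CPM, and Pdk3, a kinase that inhibits pyruvate dehydrogenase, fell by 0.64. Pdk4, another such kinase, rose by 2.33 from a mean of 0.135 CPM, and Pdha1, a subunit of the dehydrogenase, rose by 0.29. Without 393P_vector replicate 3, 4 of these 10 genes rose and 2 fell, against 26.2% and 26.8% of all genes tested in that fit.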

How the data were processed

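Total RNA of 393P_vector and 393P_ZEB1 cells (3 samples each) was sequenced on the SOLiD platform, and samples were grouped by their titles. The authors deposited unnormalized read counts per RefSeq feature on GRCm38, and also an RPKM for each feature, which implied totals of 99.1% to 99.3% of the summed counts and was not used further. The aligner, counting program, strand setting and handling of reads with several matches are not given in the sources used here. Members and lists were chosen with earlier results of these data known.

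Counts were tested in R 4.3.3 with edgeR 4.0.16 (robust quasi-likelihood, filterByExpr with a minimum count of 10, TMM, 1 coefficient for the condition), with Benjamini-Hochberg adjustment over all 13892 tested genes and a threshold of 0.05. The main edgeR fit was also run on simulated counts with known changes. Those counts had less spread between samples than the data and no library that stood apart. The alternative fits were not simulated. CPM used TMM-normalized libraries. An exact permutation test of 3 samples against 3 cannot give a p below 0.1 and was not used. The members named were the core subunits, the isoform pairs, up to 3 rises and 3 falls per complex with a mean of at least 5 CPM, and up to 2 of each in the other lists. Overlap with other genes was counted in 50-base windows of GENCODE M21 transcripts. Alternatives used DESeq2 1.42.0, limma 3.58.1, other filters, a replicate block and each sample left out. Tables and figures used Python 3.11.15, NumPy 2.4.6, SciPy 1.17.1 and pandas 2.3.3. No protein sequences were used here, and 1 item is not reported here.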

Additional observations from a re-analysis of the deposited data

How the results depend on the processing

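Against 5 members higher and 8 lower in the main comparison, the counts were 5 and 13 with DESeq2's Wald test, 14 and 14 with limma voom and sample weights, 3 and 1 at an adjusted p threshold of 0.01, and 1 and 0 when tested against a fold change of 1.5 (edgeR; 1 and 3 at an unadjusted p under 0.05). Leaving out each sample in turn gave 3 to 10 higher and 1 to 14 lower; 393P_vector replicate 3 gave 10 and 14 (9 and 14 with the same sign relative to the chromosome), and 393P_ZEB1 replicates 1, 2 and 3 gave 2, 4 and 1 lower, against 10 and 12 without 393P_vector replicates 1 and 2. The cause was not tested. Of all tested genes, 18.3% were higher and 19.3% lower in the main comparison, and 26.2% and 26.8% without 393P_vector replicate 3. The shares of all tested genes in the other fits are not given here. The changes in these counts therefore cannot be read as particular to the members.

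The median log2 fold change of the members, -0.33, ranged from -0.44 to 0.018 when each sample was left out, was -0.026 with limma voom, and without 393P_vector replicate 3 was 0.021 relative to the chromosome and 0.0068 relative to the exon length decile. The medians ranged from -0.49 to -0.11 in complex I, -0.28 to 0.14 in complex II, -0.39 to 0.0028 in complex III, -0.77 to 0.023 in complex IV and -0.040 to 0.16 in complex V. With limma voom they were -0.087 in complex I, 0.13 in complex II, -0.028 in complex IV and 0.15 in complex V; without 393P_vector replicate 3 and relative to the chromosome, -0.050 in complex I, 0.090 in complex IV and 0.10 in complex V. Complex V moved to -0.042 with structural subunits only and to 0.14 relative to the exon length decile. The log2 ratio of its summed CPM, 0.016, was 0.27 without Atp5b; leaving out samples gave -0.045 to 0.057.

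The main fit did not pair samples by replicate number. Deviations from the group mean correlated at -0.117 to 0.181 for equal numbers and -0.111 to 0.148 for unequal ones. The highest, 0.181, was for replicate 1 of both groups. Deviations from a mean of 3 samples are tied to each other, so these values cannot exclude pairing. With the replicate block 3 members were higher and 6 lower. No member was listed as a feature at more than 1 locus. This does not cover reads that match a pseudogene elsewhere, since their handling is not given. The limits are 1 vector library that stood apart, short transcripts with near-identical copies, and replicates of unstated origin.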
